A study of Mus musculus with 25 samples.

Results

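The 832 CpGs described here stood out by depth alone. They were selected on read depth: a CpG on chromosomes 1 to 19 was taken when its total reads reached at least 10 times the median reads per CpG of the file, in at least 20 of the 25 files. They were 832 of 2014659 autosomal CpGs seen in any library, and are called deep CpGs below. The rule used depth, so depth is given as a description and was not tested. Methylation did not enter the rule.

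DNA methylation was measured by reduced representation bisulfite sequencing (RRBS), in which DNA is cut at CpG-containing sites, treated with bisulfite and sequenced, and unmethylated cytosine reads as thymine. All 25 libraries came from haematopoietic stem cells (HSCs) of C57Bl/6 mice. The fetal group was fetal liver at e14.5 (n = 2), and all other groups were bone marrow. The young group was aged 3.5 months (n = 2) and the old group 25 months (n = 2). Mice aged 3.5 months were kept another 6 months and given 5-fluorouracil (5-FU), a drug that kills dividing cells, in 0 doses (n = 3), 2 doses (n = 3) or 4 doses (n = 2). The other libraries were HSCs after transplantation of 10 (n = 3), 50 (n = 1) or 500 (n = 1) young cells, or of 10 (n = 2), 50 (n = 1) or 500 (n = 3) old cells. The labels give neither the hosts nor the time after transplantation, and do not say whether replicates came from separate animals, so the spread between replicates may be technical. The HSC identity rests on the labels, since methylation reads no marker expression.

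A mammalian genome holds many sequences in more copies than a reference assembly shows. Ribosomal RNA genes lie in long tandem arrays of which only some copies are transcribed, and silent copies are known to carry methylated promoters. Major satellite repeats pack the heterochromatin around mouse centromeres and are normally heavily methylated. Small RNA genes such as the rodent 4.5S RNAs also lie in tandem arrays. When an aligner has a single copy to choose, reads of all copies stack up there, and the level read at such a CpG is then a mean over copies.

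Each library had a median of 10 to 54 reads per CpG, so the depth required of a deep CpG was 100 to 540 reads. All 25 files passed the rule at 567 of the 832 CpGs, and a single library passed it at 731 to 832 of them. The deep CpGs took between 3.64% and 7.61% of a library's autosomal reads. That share was lowest in the fetal libraries (3.64% and 4.84%) and in the libraries with 0 doses of 5-FU (3.8% to 4.06%). The median over the deep CpGs of the relative depth, which is the reads divided by the library's median reads per CpG, was 67.2, with single CpGs between 11.1 and 28915. At the edge of the rule, chr6:47718523 (level 60.8%), chr1:7732244 (13.5%) and chr1:152077421 (88.7%) lay just inside, each at 10 times the median in the file that decided it. Just outside were chr6:47610258 (60.2%) and chr12:68936868 (91.0%), each past the threshold in 19 files, and chr6:47627601 (59.5%) in 18 files. A level is the percent of reads methylated at a CpG. Levels per CpG given without a library are medians over the 25 libraries. Positions are on mm9 unless another build is named.

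The sequence around a deep CpG could be shown only where the spacing of covered CpGs matched a RefSeq promoter of another build. Of 31396 promoters (GRCm38.p6, 250 bases before to 50 after the gene's start), 6 matched at 8 or more covered CpGs beside a deep cluster, with every covered CpG of the window at a CpG of the promoter. No other promoter matched at more than 6. In 3 of the 6, deep CpGs lay within the promoter window, and a stretch of each is printed 5′ to 3′ on the gene's strand. The stretch ends no later than the gene's start, so deep CpGs past the start are not shown. Capitals mark the deep CpGs within it, 3 of 5 for Hjurp, 1 of 4 for Vmn2r29 and 2 of 2 for LOC115490388.
Hjurp, GRCm38.p6 chr1:88277580-88277671, minus strand: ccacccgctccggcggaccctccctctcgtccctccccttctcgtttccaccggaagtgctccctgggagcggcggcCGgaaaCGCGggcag
Vmn2r29, GRCm38.p6 chr7:7278290-7278501, minus strand: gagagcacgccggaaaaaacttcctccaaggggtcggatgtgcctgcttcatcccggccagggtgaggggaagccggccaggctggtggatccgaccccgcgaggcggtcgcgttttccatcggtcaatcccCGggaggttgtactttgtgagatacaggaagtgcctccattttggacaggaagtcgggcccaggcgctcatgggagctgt
LOC115490388, GRCm38.p6 chr6:3182880-3183087, plus strand: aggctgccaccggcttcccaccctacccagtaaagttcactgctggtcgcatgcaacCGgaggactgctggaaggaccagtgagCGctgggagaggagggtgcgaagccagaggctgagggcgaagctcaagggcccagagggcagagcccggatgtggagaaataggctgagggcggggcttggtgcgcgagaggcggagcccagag
The deep clusters at these promoters differed widely in level. Hjurp encodes the chaperone that loads the centromeric histone CENP-A. Its cluster, chr1:90174065-90174169, held 8 deep CpGs at a median relative depth of 18.8, of which 5 lay in the promoter window. The library means over the 8 ran only from 0% to 1.63%. Vmn2r29 encodes a vomeronasal receptor. Its cluster, chr7:7230650-7231080, held 12 deep CpGs at a relative depth of 21.9, of which 4 lay in the promoter window. Library means over the 12 lay between 77.9% and 85.0%. The 1 CpG in capitals, at -79 bp from the start, is chr7:7231079. Its level was lower, from 11.9% to 64.7% over the libraries. The LOC115490388 cluster, chr6:3132937-3132965, held 2 deep CpGs at a relative depth of 18.7, with library means of 28.2% to 46.1%. The match rests on CpG spacing and not on coordinates. Where no such match was found, the sequence of a deep CpG was not analysed here.

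The deep CpGs were strongly clustered. Joining neighbours at most 1000 bp apart gave 115 clusters on all 19 autosomes, of which 27 held 1 CpG, 18 held 2 and 70 held 3 or more. A single locus, chr17:39979959-39985655, held 296 of them (35.6%) within 5697 bp. An array of 19 clusters at chr6:47601705-47728137 held 126 (15.1%). The other 410 lay in 95 clusters. In all, 39 deep CpGs (4.69%), in 9 clusters on 4 chromosomes, lay in the first 3200000 bp of a chromosome. Of the 568553 autosomal CpGs that every library covered with 5 or more reads, 0.159% lay there. Mouse autosomes have their centromere at that end. Of the 39, 14 lay in 1 cluster, chr6:3150878-3151443, and 13 in another, chr11:3093351-3093631. Within clusters, neighbouring deep CpGs lay a median of 9 bp apart, against 12 bp for CpGs covered to that depth throughout.

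The chromosome 17 locus lies where mm9 places a partial copy of the 45S pre-ribosomal RNA gene, the precursor of the 18S, 5.8S and 28S RNAs. This is given as background; the files name no gene there. Of 343 CpGs covered in at least 20 files within its span, 296 were deep. Their relative depth had a median of 160 and ran from 14 to 495. Their levels were low throughout, with a median of 12.6% and extremes of 2.72% and 32.1%.

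A smaller cluster near the start of chromosome 6, chr6:3150878-3151443, carried the same CpG spacing as a stretch of the chromosome 17 locus. All 14 of its deep CpGs fell on CpGs of that locus, and the next best placement matched 8. Of 28 clusters with 8 or more deep CpGs placed along the locus, this was the only one that matched throughout, and the largest share matched by another was 75%. In each library the mean level of the 14 CpGs on chromosome 6 lay close to that of their counterparts on chromosome 17, with differences from -0.65 to 1.62 percentage points. Single matched CpGs lay further apart, by up to 8.77, 4.68 and 11.9 points with 0 doses of 5-FU and up to 4.34 elsewhere. Their relative depths were also alike, 83.0 against 79.5 in fetal replicate 2 and 166 against 156 in the library of 500 young cells.

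**Figure D1:**
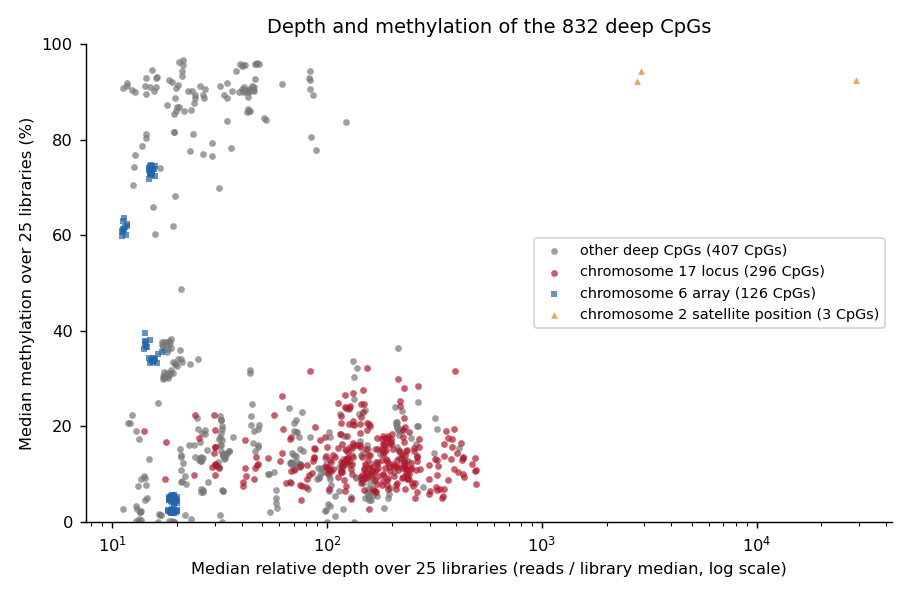
Median relative depth (x axis, log scale) and median methylation (y axis, %) over the 25 libraries, 1 point per deep CpG, coloured by location. The chromosome 17 locus forms a low-methylated group around a relative depth of 160, the chromosome 6 array falls into bands of level, and 3 CpGs on chromosome 2 lie far to the right at over 90%.

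The array on chromosome 6 was built from repeated units. It has 15 clusters of at least 7 deep CpGs, with median relative depths between 17.5 and 19.8. Of the 18 distances between cluster starts, 10 were between 4308 and 4407 bp, with a median of 4336.5 bp, and the longest gap was 54596 bp. The pattern of methylation was repeated from unit to unit. Each of the 15 units held 5 deep CpGs below 20% and 1 to 3 above 50%, and the most methylated CpG of a unit was always between 71.7% and 74.8%. Over the whole array, 75 deep CpGs were below 20%, 22 between 20% and 50%, and 29 above 50%. Beside its first cluster, 14 covered CpGs matched the spacing of the promoter of Gm40371, a long non-coding RNA, and the deep CpGs lay 386 to 415 bp upstream of its start. In RefSeq the neighbours of Gm40371 include Ezh2, which encodes a histone H3 lysine methyltransferase, on one side and Rn4.5s, a 4.5S RNA gene, on the other. Which element of the unit the CpGs belong to was not tested.

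**Figure D2:**
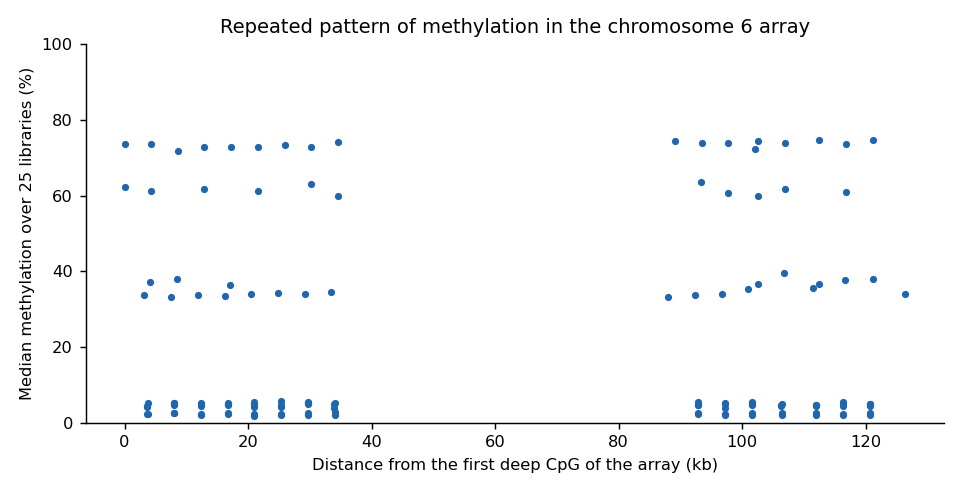
Median methylation over 25 libraries (y axis, %) of the 126 deep CpGs of the chromosome 6 array against distance from the first of them (x axis, kb). The same bands, below 6%, near 35%, near 60% and near 74%, recur from unit to unit on both sides of a gap.

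The deepest cluster lay at chr2:98506419-98506661, a position known in mouse assemblies for a fragment of major satellite. Its 3 deep CpGs had a median relative depth of 2891, and chr2:98506660 alone reached 28915 times the library median and up to 1411582 reads. They were highly methylated, at 92.3%, 92.5% and 94.3%.

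Several smaller clusters were spaced alike at different places in the genome. A set of 4 CpGs spanning 79 bp recurred at 6 places, on chromosomes 2, 6, 8, 13 and 18, with chromosome 6 holding a pair of them. Their median relative depths lay between 18.5 and 19.7 and their median levels between 31.4% and 33.4%. Within a single library the 6 places differed by a median of 3.69 percentage points from lowest to highest, and by up to 6.41. A set of 3 CpGs spanning 36 bp recurred at 4 places, on chromosomes 3, 6, 7 and 15, at relative depths of 44.9 to 45.8 and levels of 90.1% to 91.3%. A set of 7 CpGs spanning 111 bp lay on both chromosome 10 and chromosome 14, at 14.8% and 14.2%. Places that share a spacing were thus alike in median depth and median level. The matching used neither, but depth had chosen all these CpGs, so their likeness in depth is a description only. They may share reads or sequence, so they are not independent measurements.

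Most deep CpGs had low levels, and few were fully methylated. Of the 829 deep CpGs that every library covered with 5 or more reads, 68.8% had a mean level below 20%, 20.9% lay between 20% and 80%, and 10.4% at 80% or above. The shares over all 568553 such CpGs were 53.2%, 11.4% and 35.5%. The 1768 CpGs at 5 to 10 times the median, a comparison set of lesser depth, had 71.4%, 9.67% and 18.9%. Their median level was 2.6%, against 14.2% for the deep CpGs. No deep CpG of the chromosome 17 locus or of the chromosome 6 array reached 80%. The remaining 3 deep CpGs, chr12:100883850, chr12:100883860 and chr12:100883863, had no read in either young library and up to 13224 reads elsewhere, and were not tested.

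Levels at the chromosome 17 locus differed between groups more than they did between replicates in several comparisons. The mean over its 296 CpGs was 7.34% and 4.07% in the fetal libraries, 12.2% and 11.8% in the young and 17.8% and 22.1% in the old. Fetal, young and old libraries did not overlap. The young group exceeded the fetal by 6.32 percentage points and the old exceeded the young by 7.94. The mean was 11.1%, 10.2% and 10.6% with 0 doses of 5-FU, 11.5%, 8.01% and 12.3% with 2 doses, and 10.9% and 13.3% with 4 doses. The 3 groups overlapped, and all libraries with 0 doses lay below both young ones, by 1.41 points on average. After transplantation of young cells the mean was 16.2%, 15.0% and 13.1% with 10 cells, 19.0% with 50 and 13.5% with 500. All 5 libraries lay above both young libraries, and those of 10 cells by 2.74 points on average. After transplantation of old cells it was 13.9% and 18.9% with 10 cells, 18.7% with 50, and 18.3%, 21.3% and 13.8% with 500. These ranges overlapped with the old group. Replicates of 500 old cells ran from 13.8% to 21.3%, and a group of 1 library has no replicate error. Relative depth at the locus also moved with the groups: its median over the 296 CpGs was 102 to 106 in the fetal libraries, 162 to 165 in the young and 132 to 139 in the old. The part of depth in these levels was not tested.

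The difference ran along the whole locus. In bins of 1000 bp the old group exceeded the young by 6.40 to 10.3 points and the young exceeded the fetal by 5.38 to 7.34. CpG by CpG, 189 of the 296 (63.9%) had fetal libraries below young and young below old with no overlap. Over all deep CpGs tested, that order held at 375 of 829 (45.2%), at 11.5% of the CpGs at 5 to 10 times the median and at 4.05% of all CpGs tested.

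**Figure D3:**
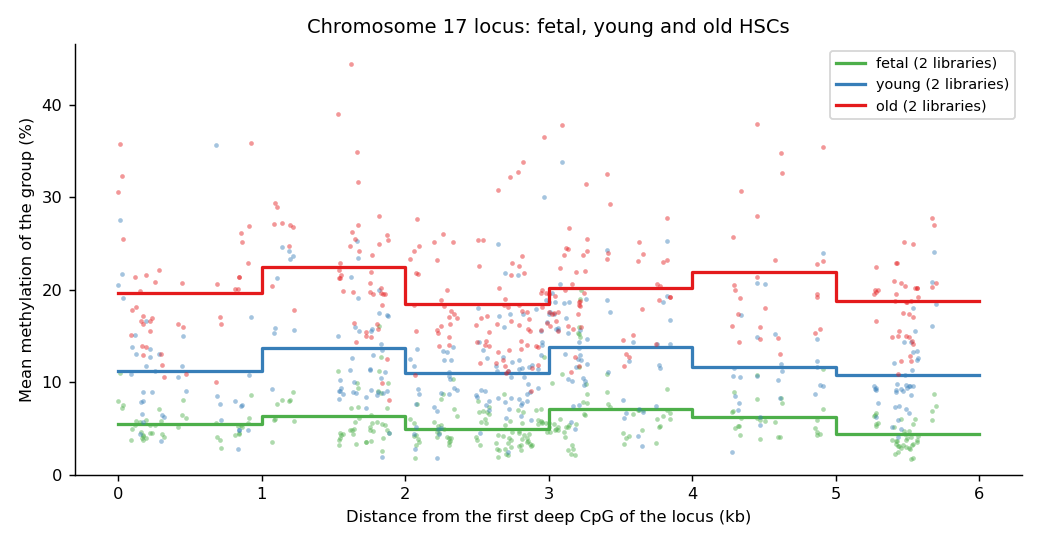
Group mean methylation (y axis, %) of each deep CpG of the chromosome 17 locus (points) against distance from the first of them (x axis, kb), with means per 1000 bp as lines, for fetal, young and old HSCs (2 libraries each). In every bin the old line lies above the young, and the young above the fetal.

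Deep CpGs elsewhere with levels below 50% (300 CpGs in 56 clusters) had a similar order of groups. Their mean was 8.82% and 7.0% in the fetal, 13.8% and 13.3% in the young and 18.3% and 21.3% in the old libraries, again with no overlap. It was 13.2%, 12.2% and 12.9% with 0 doses of 5-FU, 12.8%, 10.4% and 14.4% with 2 and 13.4% and 15.1% with 4. With young donor cells it was 16.8%, 16.2% and 14.8% for 10 cells, 19.3% for 50 and 15.7% for 500, each above both young libraries. With old donor cells it was 14.9% and 18.1% for 10 cells, 18.7% for 50 and 19.0%, 20.5% and 15.8% for 500. Both libraries of 10 old cells lay below the old group, and those of 50 and 500 overlapped with it.

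The 6-place set, with levels in the middle range, had the same order. Its mean was 19.0% and 15.6% in the fetal libraries, 27.7% and 25.3% in the young, and 29.2% and 35.8% in the old. The 3 groups did not overlap.

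Several of the clusters with the most deep CpGs shared the order fetal, young, old as group means. The 20 CpGs of chr16:57391312-57391739 averaged 8.06% ± 1.46 (SD, n = 2) in the fetal group, 16.8% ± 0.76 (n = 2) in the young and 24.3% ± 2.30 (n = 2) in the old. The 18 CpGs of chr16:11144143-11144264 averaged 3.38% ± 1.06, 8.51% ± 1.04 and 15.1% ± 0.99 in the same 3 groups. Of the 18 CpGs of chr12:100883356-100883864, 3 had no read in the young libraries, and the other 15 averaged 7.90% ± 1.05, 18.4% ± 0.12 and 22.0% ± 2.90. The 17 of chr17:36368220-36368428 averaged 2.22% ± 0.72, 7.95% ± 0.47 and 10.6% ± 1.51. The 13 of chr5:147072588-147072871 averaged 5.78% ± 1.32, 15.2% ± 1.65 and 19.6% ± 3.23, and the 12 of chr1:169270470-169270630 averaged 5.93% ± 0.24, 10.2% ± 0.67 and 20.3% ± 1.15. The 12 of chr7:7230650-7231080, the Vmn2r29 cluster, did not have this order, at 84.1% ± 1.17, 79.3% ± 0.65 and 82.5% ± 0.79, nor did chr11:3093351-3093631.

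Among the deepest clusters after the satellite position, levels were likewise lowest in the fetal group. The 8 CpGs of chr13:44965001-44965170 (relative depth 253) averaged 11.1% ± 1.83 in the fetal group, 23.1% ± 1.91 in the young and 29.3% ± 4.83 in the old. The 7 of chr11:108873012-108873185 (224) averaged 5.79% ± 1.35, 14.8% ± 0.16 and 23.3% ± 2.81. The 4 of chr1:124253730-124253806 (215) averaged 5.13% ± 0.77, 15.9% ± 3.16 and 19.6% ± 2.44, and the 5 of chr16:61056181-61056202 (211) averaged 7.67% ± 1.22, 19.9% ± 1.28 and 28.6% ± 4.59. Each of these groups has 2 libraries.

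The chromosome 6 array kept a narrower range. Its mean over 126 CpGs was 25.9% and 26.3% in the fetal, 24.1% and 25.4% in the young and 27.9% and 29.3% in the old libraries. The old libraries lay above both other groups, and the fetal above the young. It was 26.4%, 25.1% and 25.1% with 0 doses of 5-FU, 24.5%, 24.2% and 24.9% with 2, and 26.5% and 26.3% with 4. With young donor cells it was 21.9%, 22.3% and 21.0% for 10 cells, 23.5% for 50 and 20.8% for 500, all below both young libraries. With old donor cells it was 21.1% and 24.4% for 10 cells, 22.9% for 50 and 23.5%, 24.1% and 23.1% for 500, all below both old libraries. The fall was not particular to the array. For 10 young cells the median difference per CpG was -0.784 points in the array and -1.07 over all CpGs tested. For 10 old cells these were -2.77 and -2.16, and for 500 old cells -2.17 and -1.70. The order fetal, young, old without overlap held at 11 of the 126 CpGs (8.73%). Median relative depth over the array ran from 11.6 to 12.7 in the old libraries and from 33.1 to 37.2 in those with 0 doses of 5-FU.

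**Figure D4:**
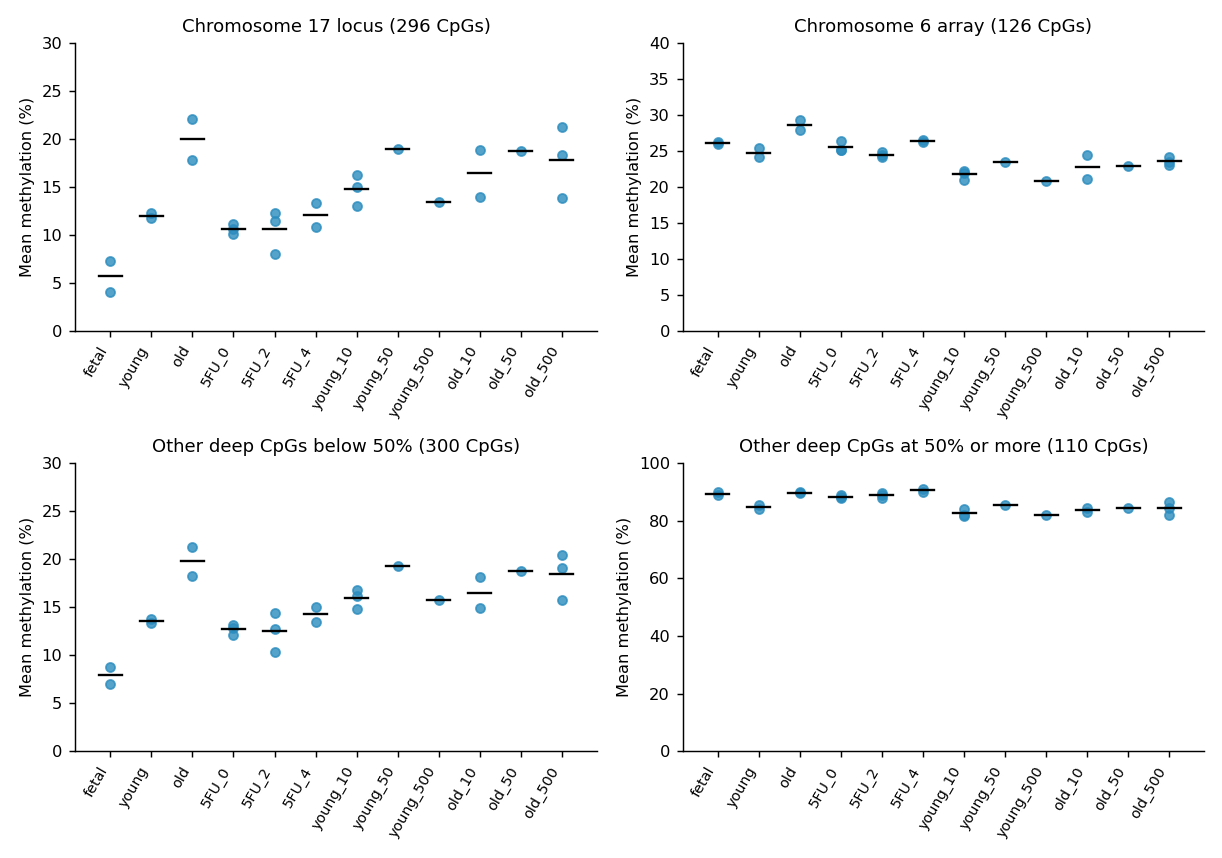
Mean methylation per library (points, y axis in %, scales differ between panels) and group mean (bars) in the 12 groups for the chromosome 17 locus, the chromosome 6 array and the other deep CpGs split at 50%. The young_10 to old_500 labels give the donor age and the number of cells transplanted, and 5FU_0 to 5FU_4 the doses of 5-FU. Both panels of low-methylated CpGs are lowest in fetal libraries, while every array mean after transplantation lies below both libraries of the donor's age group. Median differences over all CpGs tested were also negative for 10 young, 10 old and 500 old cells (-1.07, -2.16 and -1.70 points).

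Highly methylated deep CpGs (110 at 50% or more, in 43 clusters outside the array) did not follow that order. Their mean was 88.7% and 89.9% in the fetal, 83.9% and 85.3% in the young and 89.4% and 89.9% in the old libraries. The low young means came largely from 13 CpGs in 1 cluster, chr11:3093351-3093631, described with the single CpGs. Over the other 97 CpGs the means were 88.7% and 90.1% in the fetal, 88.0% and 88.4% in the young and 89.4% and 90.1% in the old libraries, and the medians were 92.1% and 92.5%, 92.2% and 93.0%, and 92.7% and 93.4%, so that by the median the fetal and young libraries overlapped. With 0, 2 or 4 doses of 5-FU the means over all 110 lay between 87.9% and 91.1%. Over the 97 they lay between 87.7% and 91.1%, overlapping with the young libraries. With young donor cells they were 81.7%, 84.2% and 81.9% for 10 cells, 85.5% for 50 and 82.0% for 500. With old donor cells they were 82.9% and 84.5% for 10 cells, 84.3% for 50 and 84.5%, 86.4% and 81.9% for 500, all below both old libraries. Over the 97 CpGs the 5 libraries with young donor cells had means of 82.8% to 86.6%, all below both young libraries. Median differences over all CpGs tested were also negative for 10 young, 10 old and 500 old cells, at -1.07, -2.16 and -1.70 points.

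The satellite position on chromosome 2 was highly methylated throughout, and lower in most libraries after transplantation. The mean of its 3 CpGs was 95% in each fetal library, 94.1% and 95.2% in the young, 94.8% and 95.1% in the old, 95%, 92.6% and 93.2% with 0 doses of 5-FU, 93.0%, 91.4% and 93.6% with 2, and 94.9% and 95.6% with 4. With young donor cells it was 86.7%, 89.2% and 88.0% for 10 cells, 90.4% for 50 and 93.3% for 500. With old donor cells it was 87.1% and 87.4% for 10 cells, 87.8% for 50 and 90.5%, 90.1% and 92.4% for 500. Both groups of 10 cells lay below every library without transplantation. So did both libraries of 50 cells and replicates 1 and 2 of 500 old cells. The library of 500 young cells (93.3%) and replicate 3 of 500 old cells (92.4%) did not. At chr2:98506660 the difference from the matching donor-age group was -7.88 points for 10 young cells (adjusted p = 0.25) and -9.84 points for 10 old cells (adjusted p = 0.211), neither past the threshold in the quasi-binomial test over all CpGs. The median differences over all CpGs tested were also negative in these comparisons, at -1.07 and -2.16 points.

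Single CpGs were tested with a quasi-binomial model of methylated and total reads fitted on all 25 libraries, with moderated dispersion and Benjamini-Hochberg adjustment over all 568553 CpGs tested. A CpG was called at an adjusted p under 0.05 and a difference of at least 10 percentage points. Between fetal and young HSCs, 23 deep CpGs gained and 4 lost methylation. Together they were 3.26% of the 829 tested, against 0.373% called over all CpGs tested (0.117% gained, 0.256% lost) and 0.848% of the CpGs at 5 to 10 times the median. Of the 23 gains, 13 lay in the chromosome 17 locus. The median difference was 3.73 points over deep CpGs and 0.36 points over all CpGs. Young libraries lay above fetal ones without overlap at 497 deep CpGs (60%, against 20.4% of all CpGs tested) and below them at 146 (17.6%, against 13.8%). Leaving out any 1 of the 4 libraries brought the count of calls from 27 to between 1 and 3. Limma on logit methylation called 0 gains and 2 losses (0.241%, against 0.127% of all CpGs tested). A fit of the fetal and young libraries alone called 0 gains and 4 losses (0.483%, against 0.027% of the 1068105 CpGs tested there).

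In the locus on chromosome 17, chr17:39983054 had the largest gain among the called CpGs. It read 34.3% and 33.3% in young libraries and 12.6% and 9.09% in fetal ones, a difference of 23.0 points (adjusted p = 0.00959, quasi-binomial F test). The groups did not overlap, and the reads differed as well, 19267 to 20769 for the young group against 2123 to 2464 for the fetal. On chromosome 12, chr12:100883840 read 38.3% and 48.9% in young and 8.78% and 7.53% in fetal libraries, a difference of 35.4 points (adjusted p = 0.00114, same test). Here depth went the other way, with 176 to 180 reads in the young group but 3413 to 5818 in the fetal. The young libraries stood apart from all others, which read 7.53% to 27.5% at 1046 to 13615 reads. In the old group it read 19.7% and 25.8%. This CpG lies beside the 3 that had no reads in young libraries. On chromosome 5, chr5:147072866 read 31.9% and 29.9% in young and 13.8% and 10.1% in fetal libraries, a difference of 19.0 points (adjusted p = 0.0292, same test), at 9092 to 12258 and 1658 to 2257 reads.

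All 4 losses lay in 1 cluster, chr11:3093351-3093631, whose 13 deep CpGs averaged 57.3% ± 6.25 in the young group against 88.6% ± 0.28 in the fetal and 89.0% ± 0.98 in the old (n = 2 each). Its most variable CpG, chr11:3093431, read 18.3% and 20.3% in young libraries, 83.4% and 85.5% in fetal and 89.8% and 80.2% in old ones. With 0, 2 or 4 doses of 5-FU its group means were 89.2%, 88.4% and 92.4%. After transplantation of young cells it read 43.8%, 45.5% and 36.0% for 10 cells, 35.9% (95% Wilson interval 30.3% to 41.9%) for 50 and 18.0% (12.4% to 25.4%) for 500. After transplantation of old cells it read 43.7% and 60% for 10 cells, 43.7% (39.8% to 47.8%) for 50, and 32.2%, 69.8% and 22.4% for 500. No transplanted library reached the fetal or old ones. Depth moved with the level: 230 and 261 reads in young libraries and 133 to 881 after transplantation, against 795 to 2580 in all others. Its part in the difference was not tested.

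Between young and old HSCs only 2 deep CpGs were called, both gains in the chr11:3093351-3093631 cluster (0.241% of 829). Over all CpGs tested 0.0109% were called, 0.00844% as gains and 0.00246% as losses. The larger was chr11:3093431, at 65.7 points (adjusted p = 0.0424, quasi-binomial F test). Differences below the call threshold were widespread. Old libraries lay above young ones without overlap at 624 of 829 deep CpGs (75.3%), against 43.3% of the CpGs at 5 to 10 times the median and 23.4% of all CpGs tested. They lay below at 15 (1.81%, against 9.01% of all). These sets differ in depth, and the part of depth in the shares was not tested. The higher order held for 243 of 296 CpGs (82.1%) in the chromosome 17 locus and 102 of 126 (81%) in the chromosome 6 array. The median difference was 5.25 points over deep CpGs, 7.88 in the chromosome 17 locus, 2.79 in the array and 0.811 over all CpGs tested. The count depended on the fit: with only the young and old libraries, 59 deep CpGs were called, 58 of them gains (7.12%, against 0.485% of the 1152529 CpGs tested there), and without 1 of the 4 libraries 0 or 1 was called.

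The libraries with 0 doses of 5-FU differ from the young group by 6 more months of age, and also in depth. Their replicates had median depths of 11, 10 and 13 reads, against 43 and 54 for the young replicates. Deep CpGs held 3.8% to 4.06% of their autosomal reads, against 5.67% and 5.34%. The parts of age and of depth in the differences were not tested. Between the 0-dose and young groups, 7 deep CpGs gained and 2 lost. These were 1.09% of 829, against 0.139% of all CpGs tested (0.0971% as gains and 0.0415% as losses). The share called was 1.13% for the CpGs at 5 to 10 times the median. Of the gains, 4 were in the chromosome 11 cluster, where chr11:3093431 rose by 70.0 points (adjusted p = 0.00505, quasi-binomial F test). On chromosome 1, chr1:173009282 read 24.7%, 26.6% and 30.8% with 0 doses and 6.49% and 6.84% in young libraries (adjusted p = 0.0219, same test), at 218 to 308 and 462 to 585 reads. In the chromosome 17 locus, chr17:39982181 read 18.3%, 17% and 18.7% against 1.59% and 1.98% in young libraries (adjusted p = 0.0123, same test), at 600 to 731 and 5659 to 7459 reads. None of these groups overlapped. The losses were chr12:100883840, at 18.5%, 16.1% and 16.5% against 38.3% and 48.9% (adjusted p = 0.0195), and chr2:167110589, at 75.7%, 77.4% and 69.4% against 95.8% and 94.8% (adjusted p = 0.0475), both in that test. The first had 3032 to 3749 reads with 0 doses against 176 to 180 in the young libraries, which lay above all other libraries there. The second had 31 to 49 against 1299 to 1673. Libraries with 0 doses lay above the young ones at 160 deep CpGs (19.3%, against 9.25% of all CpGs tested) and below them at 282 (34%, against 12.6%). The median difference over deep CpGs was -0.67 points, and -0.04 over all CpGs tested. Without 1 of the 5 libraries the count of calls was 1 or 2, and limma called 19 (2.29%, against 1.01% of all CpGs tested).

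Doses of 5-FU were set against 0 doses. With 2 doses, 2 deep CpGs gained and 1 lost (0.362% of 829, against 0.0827% of all CpGs tested, 0.0566% as gains and 0.026% as losses), and with 4 doses 3 gained (0.362%, against 0.0994%, 0.0705% as gains and 0.0288% as losses). These comparisons share the libraries with 0 doses. At chr2:167110589 the level was 96.7%, 96.2% and 96.4% with 2 doses and 96.5% and 97.5% with 4, and at chr1:104930605 it was 96.8%, 97.2% and 96.9%, then 97.8% and 98.1%. With 0 doses, chr1:104930605 read 73.1%, 90.0% and 75.7%. Both CpGs were lower in every library with 0 doses, and both had only 30 to 52 reads there against 1417 to 3855 with 2 or 4 doses. The adjusted p-values at chr2:167110589 were 0.0156 and 0.0104 and at chr1:104930605 they were 0.0393 and 0.0205 (quasi-binomial F test). The third gain with 4 doses, chr2:71784920, had 24 to 47 reads with 0 doses, where it read 76.1%, 87.5% and 78.7%, and 97.6% and 97.5% with 4 doses (adjusted p = 0.043, same test). The loss with 2 doses, chr5:147072866, read 21.8%, 17.9% and 19.3% against 39.3%, 36.3% and 39.0% with 0 doses (adjusted p = 0.0452, same test). It had 2016 to 2474 reads with 2 doses and 433 to 682 with 0, and its call was kept in 4 alternatives and lost in 8. Without overlap, libraries with 2 doses lay above those with 0 at 34 deep CpGs (4.1%, against 2.67% of all CpGs tested) and below them at 72 (8.69%, against 4.26%). Libraries with 4 doses lay above them at 248 (29.9%, against 8.18%) and below at 57 (6.88%, against 4.96%). Median differences over deep CpGs were 0.135 points with 2 doses and 1.48 points with 4, against 0 over all CpGs tested in both. Without single libraries the first ran from -0.49 to 0.93, changing sign, and the second from 0.74 to 2.22, the lowest without 4-dose replicate 2. With limma the counts were 6 and 3 (0.724% and 0.362%), below the 1.28% and 1.11% it called over all CpGs tested. When the fit held nothing but the 2 groups compared, 0 deep CpGs were called in either comparison, against 0.00702% and 0.0342% over all CpGs. Without 0-dose replicate 3 the counts were 0 and 0, without 0-dose replicate 1 the count for 2 doses was 1, and without 4-dose replicate 2 the count for 4 doses was 0.

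After transplantation no deep CpG was called with the quasi-binomial test. For 10 young cells against young HSCs, 0 of 829 passed, against 0.0624% of all CpGs tested (0.0146% gained, 0.0478% lost), and 112 had an unadjusted p under 0.05 (13.5%, against 16.3% of all CpGs tested). The median difference was 1.37 points over deep CpGs and 2.58 in the chromosome 17 locus, while it was -1.07 points over all CpGs tested and -0.457 at 5 to 10 times the median. Without replicate 1 of 10 young cells the deep median was 0.88 points. Libraries of 10 young cells lay above both young ones at 274 deep CpGs (33.1%, against 4.42% of all CpGs tested) and below them at 134 (16.2%, against 26.9%). For 10 old cells against old HSCs, 0 passed, against 0.0102% (0.000704% gained, 0.0095% lost), and 161 had an unadjusted p under 0.05 (19.4%, against 14.8% of all). The libraries lay above both old ones at 14 deep CpGs (1.69%, against 4.3% of all CpGs tested) and below them at 364 (43.9%, against 36.4%). The median difference was -3.27 points over deep CpGs and -2.16 over all CpGs tested. The deep median was -1.42 (all: -1.89) without replicate 1 of 10 old cells, -5.30 (-2.18) without their replicate 2, -4.99 (-2.34) without old replicate 1 and -1.48 (-1.96) without old replicate 2, so its place beside all CpGs depended on the libraries. For 500 old cells, 0 passed, against 0.00334% (0.000704% gained, 0.00264% lost), and 126 had an unadjusted p under 0.05 (15.2%, against 12.1% of all), with medians of -2.00 and -1.70 points. The 2 medians were -0.58 and -1.39 without old replicate 2, -3.57 and -1.75 without old replicate 1, and -0.89 and -1.67 without replicate 3 of 500 old cells. Those libraries lay above the old ones at 30 deep CpGs (3.62%, against 3.33% of all CpGs tested) and below them at 249 (30%, against 25.6%). With limma on logit methylation the 3 counts were 0, 0 and 1 (0.121% for the last, against 0.372% of all CpGs tested). Groups of 50 cells and the group of 500 young cells have 1 library each and were not tested.

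**Figure D5:**
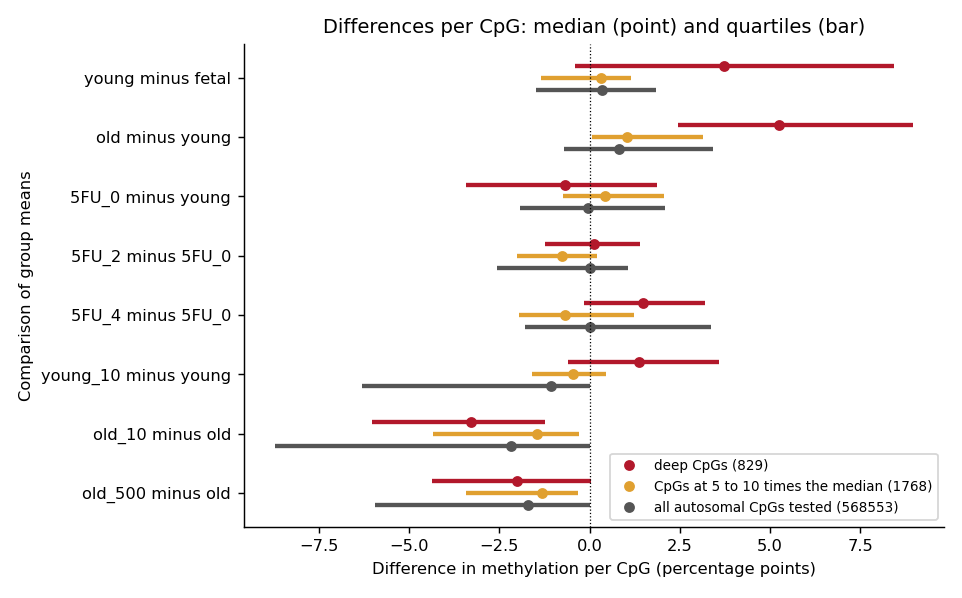
Differences in methylation per CpG (x axis, percentage points) in the 8 comparisons: median (point) and quartiles (bar) for deep CpGs, CpGs at 5 to 10 times the median and all autosomal CpGs tested. The deep CpGs lie furthest to the right of all CpGs in young minus fetal (3.73 against 0.36) and old minus young (5.25 against 0.811).

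Across the 12 groups, the group means of a deep CpG spanned a median of 14.9 points. After chr11:3093431, which spanned 74.3 points, the widest were chr12:20239164 (40.3), chr1:7732244 (40.2), chr7:7231079 (39.9) and chr17:36844409 (39.0), taking 1 CpG per cluster. At chr12:20239164 the extremes were single libraries, 35.2% with 500 young cells and 75.5% with 50. At chr1:7732244 the highest group, 0 doses of 5-FU, rested on 17 to 34 reads per library, which gave 57.1%, 64.7% and 29.4%. At chr7:7231079, in the Vmn2r29 cluster, fetal libraries read 55.9% and 64.7% and those with 2 doses of 5-FU 34.9%, 14.49% and 11.9%. At chr17:36844409 the highest group, 4 doses, read 91.8% and 91.4%, and the lowest was the single library of 500 young cells at 52.7%, with those of 10 young cells at 53.2%, 60.5% and 47.3%. Several of these ranges thus rest on few reads or on 1 library.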

How the data were processed

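RRBS reads of 25 libraries in 12 groups were used as deposited. Each file lists CpGs with methylated and total reads. The deposited pair of methylated over total reads was split at the slash into 2 counts. The deposited score, a whole number made by the authors, equalled the methylated share scaled up and rounded down on the files, and was not tested. The build is mm9, as the submitters' processing notes name it. How reads were aligned, reads with several matches were treated, methylation was called and duplicates were handled is not given in the sources used here. Each of these steps could change the depth and level of a multicopy CpG. Reads carry no molecular identifiers, so intervals cover counting error only.

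Deep CpGs had at least 10 times the file's median reads in 20 or more of 25 files. The 568553 CpGs that every library covered with 5 or more reads, 829 of them deep, entered a logistic model of quasi-binomial type, with 1 mean for each group, Williams weights for correlated reads (estimated correlation 0.00716), a dispersion moderated by limma's empirical Bayes with a trend on depth and held at 1 or more, and an F test (13 residual and 2.25 prior degrees of freedom), with Benjamini-Hochberg adjustment over all CpGs tested. Calls needed an adjusted p under 0.05 and 10 percentage points. Depth chose the CpGs, so no test was made over their sum or mean. Named were the 10 clusters with the most deep CpGs, the 5 deepest clusters of at least 3, the 3 largest called gains and losses of each comparison whose groups did not overlap, with at most 1 per cluster, and the 5 CpGs with the widest range of group means. Single values named beside these, such as chr2:98506660, were chosen after their values were seen. The deep CpGs, the comparison set and the clusters were chosen with earlier results of these data known. Promoters and gene names came from RefSeq (GRCm38.p6); genes on mm9 were not used here. The tools were Python 3.11.15, numpy 2.4.6, pandas 2.3.3, scipy 1.17.1, matplotlib 3.10.9, R 4.3.3 and limma 3.58.1.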

Additional observations from a re-analysis of the deposited data

Results flagged for a closer look

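After transplantation of 10 cells, the chromosome 17 locus differed from its control in opposite directions by donor age. For young donors the mean of its 296 CpGs was 2.74 percentage points above that of young HSCs, and each of the 3 libraries lay above the young mean. For old donors the difference from old HSCs was -3.57 points, and both libraries lay below the old mean, at 13.9% and 18.9%, although they overlapped with the old libraries (17.8% and 22.1%). At the other deep CpGs below 50% the differences were 2.37 points for young donors and -3.28 points for old donors, with every library on the same side of its mean as at the locus. The difference between donor ages was not tested.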

How the results depend on the processing

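For young minus fetal, 27 deep CpGs were called (3.26%, against 0.373% of all CpGs tested). The count was 49 at a minimum of 10 reads (5.94%, against 0.555%) and 7 at a minimum of 20 points (0.844%, against 0.359%). It was 2 with limma on logit methylation (0.241%, against 0.127%) and 3 with the replicate block added (0.362%, against 0.109%). With only the 2 groups fitted it was 4 (0.483%, against 0.027%). There were no gains in the last 3 settings. Without single libraries the median difference over deep CpGs ran from 2.88 to 4.94 points. For old minus young, 2 (0.241%, against 0.0109%) became 0 with 10 reads (against 0.00748%) and 8 with limma (0.965%, against 0.219%). The count was 8 with the replicate block (0.965%, against 0.216%) and 59 with only the 2 groups fitted (7.12%, against 0.485%). Without single libraries the median difference over deep CpGs ran from 3.70 to 7.33 points. For 0 doses of 5-FU minus young, 9 (1.09%, against 0.139%) became 14, 19, 18 and 1 under the same 4 settings. These were 1.7%, 2.29%, 2.17% and 0.121%, against 0.172%, 1.01%, 1.06% and 0.000117% of all CpGs tested. Without single 0-dose libraries 1 to 2 were called (0.121% to 0.241%, against 0.0276% to 0.0505%). For 2 doses, 3 (0.362%, against 0.0827%) became 1 at 20 points (0.121%, against 0.0799%) and 0 with only the groups compared (against 0.00702%). It became 6 with limma (0.724%) and 5 with the replicate block (0.603%), both below the 1.28% over all CpGs tested. Without single libraries it was 0 to 4 (up to 0.483%, against 0.0318% to 0.0855%). For 4 doses, 3 (0.362%, against 0.0994%) became 1 at 20 points (0.121%, against 0.0976%) and 0 with only the groups compared (against 0.0342%). It stayed 3 with limma and the replicate block (0.362%, against 1.11% and 0.987%). Without single 0-dose libraries it was 0 to 3. For 500 old cells, 0 became 1 with limma (0.121%, against 0.372%) and 2 without old donor 500-cell replicate 2 (0.241%, against 0.00369%). For 10 young cells and for 10 old cells 0 stayed 0. The cause was not tested. The labels do not say whether replicate numbers pair the samples. The correlation of same-numbered deviations ran from -0.0333 to 0.0327. With as few as 5 reads per CpG, counting error can hide pairing, so these values cannot decide it. Alternatives without a minimum difference, those at the chromosome 17 locus, and levels without the chromosome 11 cluster or over CpGs read in all libraries, were chosen after seeing the data; the former left every count as it was. For the named CpGs, 92 alternatives kept the call, 82 lost it and none reversed; chr11:3093431 kept its call against 0 doses of 5-FU in all 11 alternatives, and each of the others lost it in 2 or more.

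The difference at the chromosome 17 locus kept its sign without single libraries for young minus fetal (4.69 to 7.96), old minus young (5.82 to 10.1), 0 doses minus young (-1.66 to -1.18), 4 minus 0 doses (0.237 to 2.68), 10 young cells (2.00 to 3.59), 10 old cells (-6.04 to -1.10) and 500 old cells (-4.31 to -0.069), but not for 2 minus 0 doses (-0.864 to 1.3).

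The mean level over all deep CpGs depended on which CpGs and weights were used. In the order fetal, young, old, 0, 2 and 4 doses, 10, 50 and 500 young cells, and 10, 50 and 500 old cells it was 20.6%, 24.1%, 30.4%, 23.9%, 23.7%, 25.4%, 25.2%, 28.6%, 24.4%, 26.3%, 28% and 27.7%. Weighted by reads, it was 36.1%, 33.1%, 56.7%, 19.9%, 29.1%, 25.5%, 39.9%, 41.3%, 31.6%, 43.1%, 42% and 42.2%, where chr2:98506660 alone gave 1411582 of the 4405806 reads of old replicate 1. With equal weight per cluster it was 42.1%, 43.5%, 47.9%, 43.8%, 43.3%, 45.2%, 41.8%, 45%, 42.3%, 42.7%, 43.9% and 44.3%. At 20 times the median it was 11.3%, 17%, 24%, 15.8%, 15.6%, 17.3%, 19.1%, 22.7%, 18.2%, 20.2%, 22.6% and 21.9%, and for CpGs past 10 times in all 25 files 11.6%, 16.8%, 23.1%, 15.6%, 15.5%, 17%, 18.7%, 21.9%, 18%, 19.8%, 21.8% and 21.3%. The rule gave 2626 CpGs at 5 times and 513 at 20 times the median; clusters numbered 160 at 300 bp and 91 at the longest gap tried.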
